A study of Mus musculus with 7 samples.

Results

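The tRNAs that carry phenylalanine and tryptophan were measured by QuantM-seq, in which mature tRNAs receive an adapter at both ends and are then copied into cDNA and sequenced, in cultured mouse glial cells. The members were taken by name alone. They were the anticodon pools Phe-GAA and Trp-CCA, 2 of the 52 pools listed, and the isodecoders of those pools, 9 of 217 listed. An isodecoder is a tRNA that shares its anticodon with others but differs in the rest of its body, and a pool is the sum of its isodecoders. Phe-GAA had 3 isodecoders and Trp-CCA had 6. The 7 libraries covered 3 cell types. Progenitors of oligodendrocytes (OPCs, n = 3) had been made from epiblast stem cells and were kept in medium with bFGF and PDGFA. The other cells were oligodendrocytes (OLs, n = 2) made from OPCs in medium with thyroid hormone (T3) and other factors, and astrocytes (n = 2) made from OPCs with BMP4 and other factors. All cells were of the strain 129S/SvEv, and the labels name no altered allele in any group. According to the study's methods the OLs came from some of the same OPC replicates, without saying which, so p-values measure the spread between these cultures. The tables hold tRNAs only, so marker mRNAs of the cell types were not analysed here.

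tRNA Phe-GAA decodes the phenylalanine codons UUU and UUC, and tRNA Trp-CCA decodes UGG, the only codon for tryptophan. Both are methylated in the anticodon loop. The enzyme FTSJ1 adds methyl groups to the ribose of loop nucleotides in both tRNAs, and its loss in humans causes intellectual disability. Phe-GAA also bears wybutosine next to the anticodon, a bulky base that is built from 1-methylguanosine by the TYW enzymes and helps to hold the reading frame. Nuclear tRNA genes are present in many copies, and the copies of a family are transcribed to very unequal extents.

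The libraries held 1339021 to 2627351 reads assigned to tRNAs. Levels are in RPM, reads normalised to the total of tRNA reads in the library, so each value is relative to the other tRNAs of its library. Between 3.55% and 7.88% of the reads lay outside the listed cytosolic tRNAs. A tRNA with no read could have had up to 3, equal to 1.14 RPM in the deepest library and 2.24 RPM in the shallowest. Such limits, and intervals from reads, include only the error of counting. All 9 isodecoders had a mean of at least 1 RPM, the level required for testing, as did 192 isodecoders and 50 pools in all. An adjusted p under 0.01 was the threshold.

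Phe-GAA was an abundant pool and Trp-CCA a moderate one. By mean RPM Phe-GAA ranked 7 of 52 pools, and between 4 and 9 in the single libraries, with 4.17% to 5.40% of all listed tRNA. Trp-CCA ranked 24 of 52, and between 21 and 29 in the single libraries, with 1.19% to 1.74%.

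The Phe-GAA pool stood lower in both OL libraries than in every OPC library, by a margin that did not pass the test. It was 47656, 43590 and 51331 RPM in OPC replicates 1 to 3, 40595 and 41062 RPM in the 2 OL cultures, and 49184 and 38422 RPM in the 2 astrocyte cultures. The OPC and OL libraries did not overlap, while the astrocyte libraries spanned the range of both, since astrocyte replicate 2 was the lowest and replicate 1 the second highest of all 7. The means were 47525 ± 3872 RPM in OPCs (SD, n = 3), 40828 ± 330 RPM in OLs (SD, n = 2) and 43803 ± 7610 RPM in astrocytes (SD, n = 2). The log2 difference of OLs from OPCs was -0.22 (SE 0.077, 95% interval -0.39 to -0.04, limma adjusted p 0.110). Set against the median pool it was -0.33, as that pool was 0.12 higher in OLs. Over the alternatives without a replicate term the difference ran from -0.31 to -0.16. Under median-of-ratios scaling 1 of the 2 members, Phe-GAA, had a limma adjusted p under 0.05, and 0 had one under 0.01. The study itself reported this pool as lower in OLs at a DESeq2 adjusted p under 0.01. It also reported lower Phe-GAA in OLs on Northern blots. Less Phe-GAA per cell and a changed mix of cells cannot be told apart in bulk RNA. Nor can RPM, being relative, separate less Phe-GAA from more of the other tRNAs. The study also found a signature of altered or stopped reverse transcription in the anticodon loop of all Phe-GAA isodecoders. It was weaker in OLs than in OPCs and astrocytes, and its part in the level of the pool was not tested. Astrocytes differed from OPCs by -0.13 (95% interval -0.34 to 0.09, limma adjusted p 0.479), and this sign turned to 0.05 without astrocyte replicate 2. OLs differed from astrocytes by -0.09 (95% interval -0.34 to 0.16, limma adjusted p 0.677), which became 0.09 without astrocyte replicate 1. In order of mean level the pool thus ran from OPCs through astrocytes to OLs, and no neighbours in that order differed beyond their spread.

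The Trp-CCA pool lay the other way. It was 13640, 13371 and 11318 RPM in OPC replicates 1 to 3, 14978 and 13609 RPM in the 2 OL cultures, and 13669 and 15997 RPM in the 2 astrocyte cultures. Both astrocyte libraries exceeded every OPC library, the lower of them by a small margin, while OL replicate 2 lay just below OPC replicate 1. The means were 12776 ± 1270 RPM in OPCs (SD, n = 3), 14293 ± 968 RPM in OLs (SD, n = 2) and 14833 ± 1646 RPM in astrocytes (SD, n = 2). The log2 difference from OPCs was 0.17 in OLs (SE 0.092, 95% interval -0.04 to 0.37, limma adjusted p 0.205) and 0.22 in astrocytes (SE 0.12, 95% interval -0.03 to 0.46, limma adjusted p 0.338). Relative to the median pool the difference in OLs was 0.05. OLs and astrocytes differed by -0.05 (95% interval -0.30 to 0.20, limma adjusted p 0.775).

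Neither pool passed the threshold in any comparison, and neither did any other pool: limma called 0 of 50 (0%) between OLs and OPCs, between astrocytes and OPCs, and between OLs and astrocytes. At an unadjusted p under 0.05 the counts were 16, 8 and 12 of 50. Phe-GAA was among the first of these and Trp-CCA was in none. Libraries that do not overlap were common among all pools, at 50.0% of pools between OLs and OPCs, 34.0% between astrocytes and OPCs and 60.0% between OLs and astrocytes. Of the 2 members, 1 was without overlap in each comparison with OPCs, Phe-GAA for OLs and Trp-CCA for astrocytes, and 0 between OLs and astrocytes.

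**Figure D1:**
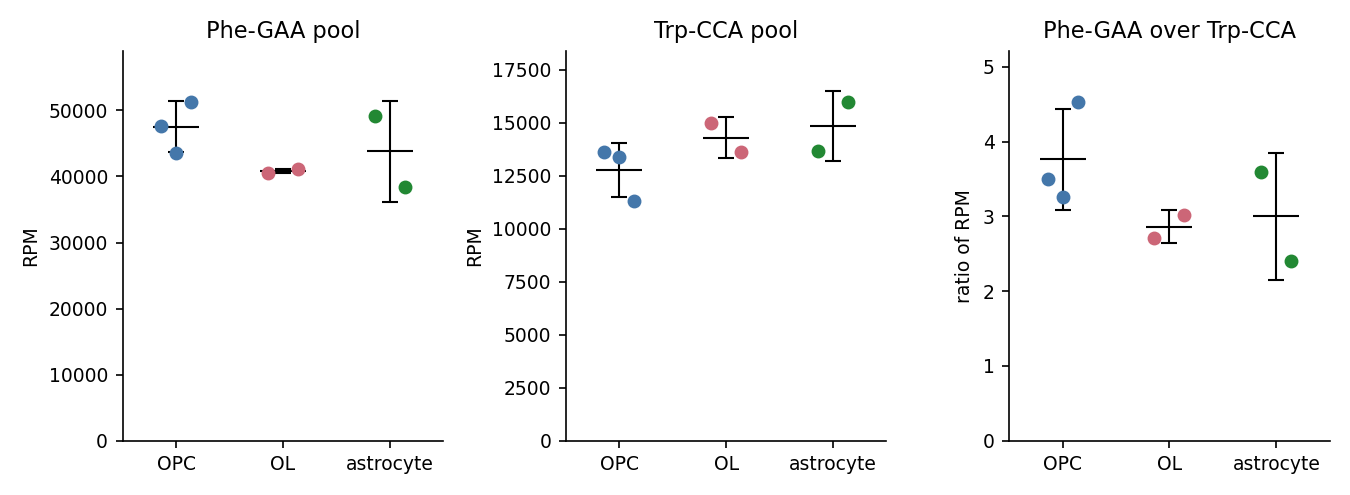
RPM of the Phe-GAA pool (left) and of the Trp-CCA pool (middle), and the ratio of Phe-GAA to Trp-CCA RPM (right), in the 7 libraries; points are libraries in order of replicate number, and bars are the mean and SD of OPCs (n = 3), OLs (n = 2) and astrocytes (n = 2). Both OL libraries lie below every OPC library for Phe-GAA and for the ratio, and the 2 astrocyte libraries lie far apart for Phe-GAA.

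The ratio of both pools does not depend on the scaling of a library. Phe-GAA exceeded Trp-CCA in every library, by 3.49, 3.26 and 4.54 times in OPC replicates 1 to 3, by 2.71 and 3.02 times in the OL libraries, and by 3.60 and 2.40 times in the astrocyte libraries. The ratio was lower in both OL libraries than in every OPC library, and the astrocyte libraries fell on either side of the OL libraries. Its mean was 3.76 ± 0.679 in OPCs (SD, n = 3), 2.86 ± 0.217 in OLs (SD, n = 2) and 3.00 ± 0.846 in astrocytes (SD, n = 2). On the log2 scale OLs differed from OPCs by -0.38 (two-sided exact permutation p 0.2, adjusted over 3 comparisons 0.6). Astrocytes differed from OPCs by -0.34 (exact permutation p 0.5, adjusted 0.75), and OLs from astrocytes by -0.04 (exact permutation p 1, adjusted 1). These values moved with single libraries. The difference of OLs from OPCs was -0.24 without OPC replicate 3. That of astrocytes from OPCs was -0.20 without OPC replicate 3, -0.63 without astrocyte replicate 1 and -0.050 without astrocyte replicate 2, and that of OLs from astrocytes turned to 0.25 without astrocyte replicate 1 and to 0.038 without OL replicate 1. With these group sizes the smallest p is 0.1 for a comparison with OPCs and 0.333 between OLs and astrocytes, so none could pass the threshold.

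Across the 7 libraries the levels of both pools ran against each other. Pearson's r of their log2 levels was -0.818 over all 7 libraries, and -0.810 after the mean of each group was taken off. In each group the library with the most Phe-GAA had the least Trp-CCA. Each library has a fixed total, which ties its pools to each other. The part of this in both r values was not tested, and they are given as a description. Of the 49 other pools tested, 7 had a lower r with Phe-GAA than Trp-CCA had, after group means were taken off.

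**Figure D2:**
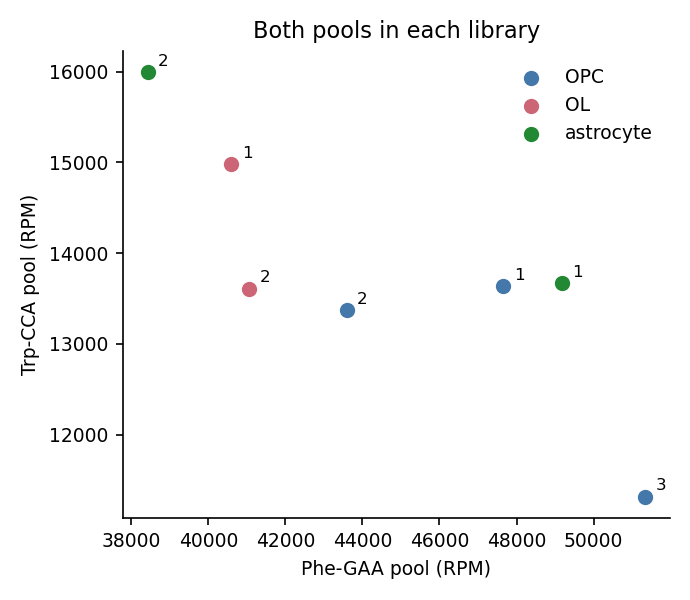
RPM of the Trp-CCA pool against RPM of the Phe-GAA pool, 1 point per library, coloured by group and labelled with the replicate number; neither axis starts at 0. OPC replicate 3 is highest for Phe-GAA and lowest for Trp-CCA, and astrocyte replicate 2 is the reverse.

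Within the Phe-GAA pool 1 isodecoder, Phe-GAA-3, passed the threshold. Phe-GAA-1, which stands for 5 identical genes, made up 81.5% of the pool on average, while Phe-GAA-2 and Phe-GAA-3, with 1 gene each, made up 7.97% and 10.5%. Phe-GAA-3 was 5228, 4819 and 6414 RPM in OPC replicates 1 to 3, 2785 and 2751 RPM in the 2 OL cultures, and 6471 and 4688 RPM in the 2 astrocyte cultures. Both OL libraries were far below all 5 other libraries and almost equal, while OPCs and astrocytes overlapped. The log2 change from OPCs to OLs was -0.98 (SE 0.13, 95% interval -1.28 to -0.67, limma adjusted p 0.0041), and that of OLs against astrocytes was -0.99 (SE 0.17, 95% interval -1.38 to -0.61, limma adjusted p 0.0053). Astrocytes and OPCs differed by 0.02 (95% interval -0.39 to 0.42, limma adjusted p 0.963). Phe-GAA-3 ranked 14 of 192 isodecoders by the size of the change between OLs and OPCs, and 18 of 192 between OLs and astrocytes.

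The fold of Phe-GAA-3 held its sign and size when single libraries were left out, but its call did not hold throughout. The log2 change from OPCs to OLs ranged from -1.06 to -0.86 over the fits that left out 1 library. The limma adjusted p was 0.0236 without OPC replicate 1, 0.0508 without OL replicate 1 and 0.0405 without OL replicate 2, where the remaining OL library was assumed to vary like the others. Without the filter on low levels it was 0.0259, and without a variance trend 0.0218. Against astrocytes the change ranged from -1.22 to -0.76, and the limma adjusted p was 0.0706 without OL replicate 1, 0.0609 without OL replicate 2 and 0.0460 without astrocyte replicate 1.

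The other Phe-GAA isodecoders did not pass the test. Phe-GAA-1 was 39100, 35297 and 41039 RPM in OPC replicates 1 to 3, 34291 and 34705 RPM in the 2 OL cultures, and 38879 and 30643 RPM in the 2 astrocyte cultures. Both OLs were lower than each of the OPCs, though close to OPC replicate 2, and lay between the astrocyte libraries. Its log2 difference of OLs from OPCs was -0.15 (SE 0.075, limma adjusted p 0.200) and that of astrocytes from OPCs -0.15 (SE 0.12, limma adjusted p 0.456). Phe-GAA-2 was 3559 ± 285 RPM in OPCs (SD, n = 3), 3562 ± 61.4 RPM in OLs (SD, n = 2) and 3463 ± 525 RPM in astrocytes (SD, n = 2). These groups overlapped, and the 95% interval of the log2 difference of OLs from OPCs was -0.23 to 0.24, around a value of 0.00 that turned to -0.06 under median-of-ratios scaling.

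Phe-GAA-3 therefore took a smaller part of its pool in OLs. Its share was 11.0%, 11.1% and 12.5% in OPC replicates 1 to 3, 6.86% and 6.70% in the 2 OL cultures, and 13.2% and 12.2% in the 2 astrocyte cultures. The 95% Wilson interval, which holds the error of counting alone, was 10.7% to 11.2% in OPC replicate 1, the shallowest library. Reads of isodecoders differed between libraries of a group far beyond that error, with a chi-square of 31.0 to 195 per degree of freedom, so groups were compared by the spread between libraries. In log2 units the share of OLs differed from that of OPCs by -0.76 (SE 0.075, limma adjusted p 0.0119), outside the threshold, and from that of astrocytes by -0.90 (SE 0.081, limma adjusted p 0.0046), inside it. The difference from OPCs passed the threshold when all 7 libraries entered the fit (adjusted p 0.0034), and that from astrocytes did not when only the 2 groups did (adjusted p 0.0172). The difference from astrocytes also missed the threshold when any library except OPC replicate 3 was left out, with log2 differences from -0.96 to -0.85 and adjusted p-values of 0.0130 and 0.0198 without OPC replicates 1 and 2, 0.0369 and 0.0442 without OL replicates 1 and 2, and 0.0348 and 0.0345 without astrocyte replicates 1 and 2. Without OPC replicate 3 the share difference from OPCs was -0.70 and passed, with an adjusted p of 0.0078. The weaker signature in OLs that the study found in Phe-GAA reads could also bear on which isodecoder a read was assigned to. The part of this in the level and share of Phe-GAA-3 was not tested.

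The 2 single-gene isodecoders of Phe-GAA changed places. Phe-GAA-3 was 1.57, 1.39 and 1.65 times as abundant as Phe-GAA-2 in OPC replicates 1 to 3 and 1.69 and 1.52 times in the astrocyte libraries, but 0.791 and 0.763 times in the OL libraries. Phe-GAA-2 was the lesser of the pair in all 5 OPC and astrocyte libraries and the greater in both OL libraries. As a share of the pool Phe-GAA-2 was 7.50% ± 0.496 in OPCs (SD, n = 3) and 8.72% ± 0.0797 in OLs (SD, n = 2), a difference that missed the threshold (limma adjusted p 0.121). Phe-GAA-1 had 84.5% and 84.5% of the pool in the OL libraries, above the 79.0% to 82.0% of all others (limma adjusted p 0.253 against OPCs and 0.106 against astrocytes).

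**Figure D3:**
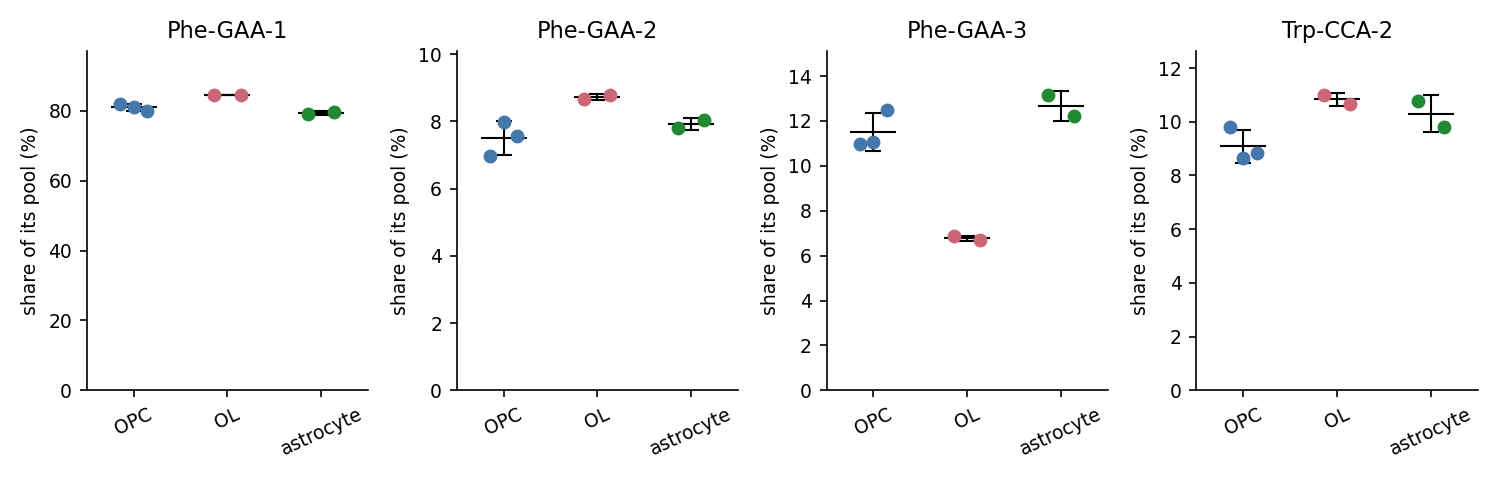
Share of the summed pool, in percent, held by Phe-GAA-1, Phe-GAA-2, Phe-GAA-3 and Trp-CCA-2 in the 7 libraries, with each vertical axis from 0 on its own scale; points are libraries and bars are the mean and SD. The share of Phe-GAA-3 is 6.70% to 6.86% in OLs and 11.0% to 13.2% in all other libraries.

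By weight, Phe-GAA-3 carried more of the difference between pools than its share. The Phe-GAA pool of OLs differed from that of OPCs by -6697 RPM on average, of which Phe-GAA-1 made up 59.4% and Phe-GAA-3 40.6%, with 35.2% to 47.0% for Phe-GAA-3 over the differences without 1 library. Phe-GAA-2 added 2.82 RPM in the other direction.

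In assigned reads Trp-CCA was dominated by the isodecoder of a single gene. Trp-CCA-5, with 1 of the 8 genes behind the pool, held 88.8% to 91.0% of it in the 7 libraries. By the share of the largest isodecoder Trp-CCA ranked 13 of the 42 pools with several isodecoders, and Phe-GAA ranked 15, yet the largest isodecoder of Phe-GAA stands for 71.4% of the genes and that of Trp-CCA for 12.5%. Trp-CCA-5 was 12272, 12174 and 10279 RPM in OPC replicates 1 to 3, 13296 and 12116 RPM in the 2 OL cultures, and 12138 and 14376 RPM in the 2 astrocyte cultures. The groups overlapped, and the log2 difference from OPCs was 0.14 in OLs (SE 0.10, limma adjusted p 0.370) and 0.20 in astrocytes (SE 0.13, limma adjusted p 0.378).

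Trp-CCA-2, also from 1 gene, was the next member. It was 1337, 1155 and 998.1 RPM in OPC replicates 1 to 3, 1647 and 1452 RPM in the 2 OL cultures, and 1474 and 1570 RPM in the 2 astrocyte cultures. All 4 OL and astrocyte libraries were higher than every OPC library. The log2 difference from OPCs was 0.42 in OLs (SE 0.15, 95% interval 0.07 to 0.77, limma adjusted p 0.0944) and 0.40 in astrocytes (SE 0.16, 95% interval 0.03 to 0.77, limma adjusted p 0.212), and neither passed the threshold. OLs and astrocytes differed by 0.02 (95% interval -0.33 to 0.38, limma adjusted p 0.938), which turned to -0.07 under median-of-ratios scaling. Its share of the pool was 9.08% ± 0.627 in OPCs (SD, n = 3), 10.8% ± 0.229 in OLs (SD, n = 2) and 10.3% ± 0.685 in astrocytes (SD, n = 2), with OL and astrocyte libraries above all OPC libraries but with no call (limma adjusted p 0.0963 and 0.296). Of the 1517 RPM by which the Trp-CCA pool of OLs exceeded that of OPCs, Trp-CCA-5 made up 74.5% and Trp-CCA-2 25.5%. This excess was 788 RPM without OPC replicate 3, with 38.6% from Trp-CCA-2, and 832 RPM without OL replicate 1, with 34.7%. It was 2201 RPM without OL replicate 2.

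The other 4 Trp-CCA isodecoders, Trp-CCA-1, -3, -4 and -6, stand for 6 of the 8 genes and were at very low levels. Each was 5.97 to 18.8 RPM, or 8 to 44 reads, in every library, above the limit of 3 reads. Together they were 30.6, 42.4 and 40.3 RPM in OPC replicates 1 to 3, 35.2 and 39.9 RPM in the 2 OL cultures, and 56.7 and 49.9 RPM in the 2 astrocyte cultures, which is 0.224% to 0.415% of the pool. By summed RPM both astrocyte libraries were the highest, while by share of the pool astrocyte replicate 2, at 0.312%, was below OPC replicates 2 and 3, at 0.317% and 0.356%. At such counts single differences are hardly measurable: the log2 differences ran from -0.18 to 0.16 between OLs and OPCs (lowest limma adjusted p 0.731), from 0.23 to 0.61 between astrocytes and OPCs (lowest limma adjusted p 0.249) and from -0.66 to -0.07 between OLs and astrocytes (lowest limma adjusted p 0.315). Values this low are also where reads of a near-identical tRNA assigned to the wrong isodecoder would weigh most, which was not tested.

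**Figure D4:**
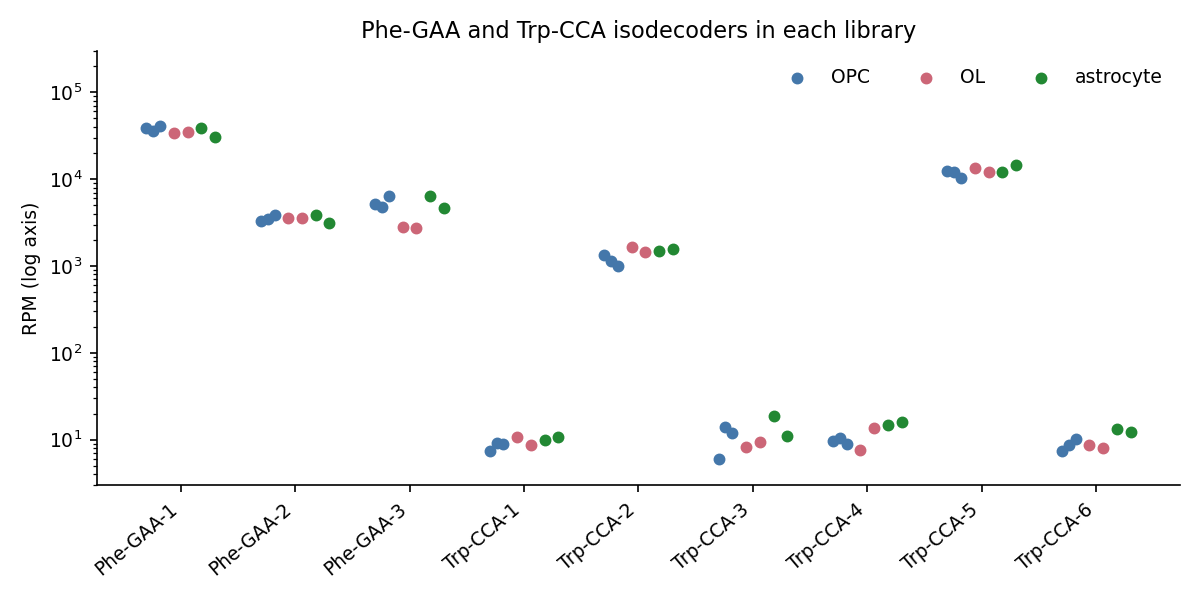
RPM of the 9 Phe-GAA and Trp-CCA isodecoders in each of the 7 libraries on a log axis, coloured by group. Phe-GAA-3 is the member whose OL libraries lie clearly below both other groups, and 4 of the 6 Trp-CCA isodecoders lie under 20 RPM in every library.

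Counted over all members, 1 of 9 isodecoders passed the threshold between OLs and OPCs, 0 of 9 between astrocytes and OPCs and 1 of 9 between OLs and astrocytes, each time Phe-GAA-3 and lower in OLs. Over all 192 isodecoders tested the limma calls were 5.73%, 0% and 6.25% in these comparisons, and calls lower in OLs were 4.69% against OPCs and 5.21% against astrocytes. The count of 0 between astrocytes and OPCs stands beside 40 of 192 at an unadjusted p under 0.05, among them 1 member, Trp-CCA-2. Without overlap between libraries were 3, 4 and 4 of the 9 members, against 53.1%, 39.6% and 60.4% of all isodecoders. For shares of the pool 0, 0 and 1 of 9 passed, against 2.17%, 0% and 3.80% of 184 isodecoders tested, and 5, 4 and 4 of 9 were without overlap, against 55.4%, 43.5% and 58.7%. At an unadjusted p under 0.05 the share test between astrocytes and OPCs gave 43 of 184, with 1 member, Trp-CCA-4. None of these counts of members lay far from the level over all isodecoders.

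**Figure D5:**
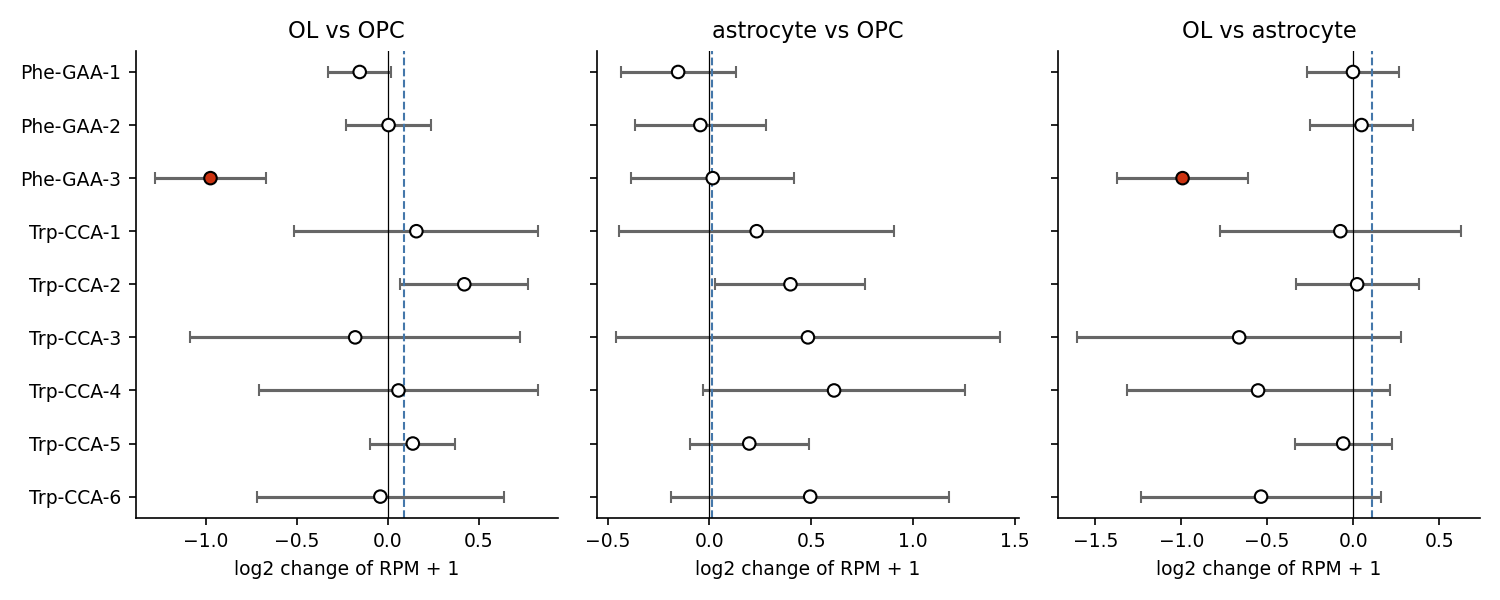
log2 change of RPM + 1 of the 9 isodecoders between OLs and OPCs, astrocytes and OPCs, and OLs and astrocytes; points are limma estimates, bars 95% intervals, filled points have an adjusted p under 0.01, and the dashed line is the median of all 192 isodecoders. Phe-GAA-3 is filled in both comparisons with OLs, near -1, and lies at 0.02 between astrocytes and OPCs.

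The genes behind these tRNAs were looked up in RefSeq on GRCm38, which is the same assembly as mm10. It holds 7 Phe-GAA genes of 73 nucleotides on 5 chromosomes and 8 Trp-CCA genes of 72 nucleotides on 3 chromosomes, the same numbers as the genes behind the isodecoders. The files do not pair isodecoders with these gene symbols, so no level can be placed at a locus. By the GENCODE annotation all 15 genes are intergenic, though n-TFgaa3 lies 85 nucleotides from Ndufs7 and n-TWcca2 97 nucleotides from Tmpo. The Trp-CCA genes are n-TWcca1 and n-TWcca2 on chromosome 10 (23777083 to 23777154 and 91181412 to 91181483), n-TWcca3 and n-TWcca4 on chromosome 13 (23498106 to 23498177 and 23506519 to 23506590), and 4 on chromosome 11. Of the latter, n-TWcca6 (69063495 to 69063566) and n-TWcca7 (69041826 to 69041897) lie near other tRNA genes, and n-TWcca5 (61407916 to 61407987) and n-TWcca8 (62746015 to 62746086) stand alone. Among the Phe-GAA genes, n-TFgaa1 and n-TFgaa4 lie on chromosome 13 (21882885 to 21882957 and 21161405 to 21161477) and n-TFgaa2 and n-TFgaa6 on chromosome 19 (12008545 to 12008617 and 12002236 to 12002308). The other 3 are n-TFgaa3 on chromosome 10 (80248964 to 80249036), n-TFgaa5 on chromosome 14 (118089525 to 118089597) and n-TFgaa7 on chromosome 5 (125406055 to 125406127). Another tRNA gene lay within 10 kb of 6 Phe-GAA genes and of 5 Trp-CCA genes.

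Related pools gave the setting. Tyr-GUA, which carries tyrosine, another aromatic amino acid, differed by 0.15 between OLs and OPCs, -0.18 between astrocytes and OPCs and 0.33 between OLs and astrocytes (limma adjusted p 0.140, 0.355 and 0.0963), so it passed in no comparison. The pools of leucine and proline whose anticodons, like that of Phe-GAA, are followed by a guanosine that is methylated include Leu-AAG, Leu-CAG, Leu-UAG, Pro-AGG, Pro-CGG and Pro-UGG, which were listed here. Of these 6, limma called 0 in each comparison, with 2, 0 and 0 at an unadjusted p under 0.05. In OLs 5 of 6 had higher values than in OPCs, with log2 differences from -0.29 for Pro-AGG to 0.34 for Pro-CGG and a median of 0.24, beside 0.12 over all pools. The list left out Leu-UAA and Leu-CAA, whose anticodons are also followed by a guanosine. Between OLs and OPCs they differed by -0.21 and 0.25 (limma adjusted p 0.0429 and 0.0492), outside the threshold. The study reported Leu-UAA as lower in OLs.

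The pools most like Phe-GAA over the 7 libraries, by Pearson's r of log2 levels, were Pro-AGG (0.884), Ser-CGA (0.827) and Leu-UAA (0.778). Those most like Trp-CCA were Asp-GUC (0.874), Arg-CCG (0.852) and Arg-CCU (0.764). These were the highest of 49 other pools, over 7 points that share their library totals, and are given as a description.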

How the data were processed

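tRNA levels came from 7 QuantM-seq libraries, grouped by the deposited labels. Per the study's methods the authors trimmed reads with cutadapt, mapped them with bowtie2 to high-confidence mature tRNAs of mm10 with identical genes collapsed, and counted them with featureCounts by strand at a mapping quality of at least 10. The authors deposited RPM relative to the sum of cytosolic and mitochondrial tRNA reads. Modified nucleotides can stop or alter reverse transcription, and the part of this in the levels was not tested. Reads that matched several isodecoders alike may have failed the mapping quality required, and the part of this in the shares was not tested. Deposited tables of the authors' own DESeq2 comparison of OPCs and OLs were not used.

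Depth was recovered from the RPM, whose values all came out as whole reads within 0.01 reads. log2(RPM + 1) was compared by limma 3.58.1 (R 4.3.3, variance trend on) for the 50 pools and 192 isodecoders that averaged 1 RPM or more, with Benjamini-Hochberg adjustment across each table. The log2(RPM + 1) scale understates changes of low tRNAs. Shares were log2(RPM + 1) minus that of the pool, over 184 isodecoders and without a trend. Comparisons with OPCs used the libraries of the groups concerned, and the comparison of OLs with astrocytes used all 7. The ratio was compared by exact permutation with scipy 1.17.1. The scripts were tested on simulated data. Alternatives covered pseudocounts, filters, scaling, trend, threshold, libraries in the fit, a replicate term and leaving out each library. All members were to be named, and the pools listed beside them were given as counts and ranges with up to 2 named. The members and lists were chosen with earlier results of these data known.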

Additional observations from a re-analysis of the deposited data

Results flagged for a closer look

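Phe-GAA-3 was singled out because its difference from OPCs was not the same in OLs and astrocytes. This is the difference between OLs and astrocytes already given, in the same libraries, and not a separate test. In the fit of all 7 libraries its level was lower in OLs than in astrocytes by -0.99 on the log2 scale (SE 0.17, limma adjusted p 0.0053, adjusted p 6.57e-05 to 0.0706 over the alternatives without a replicate term), in 2 of 2 OL libraries against both astrocyte libraries. Its share of the Phe-GAA pool differed by -0.90 (SE 0.081, limma adjusted p 0.0046, adjusted p 0.0016 to 0.0442 over the same alternatives), again without overlap. Groups of 2 or 3 libraries are too small to test for a single library that stands apart.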

How the results depend on the processing

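The tally of alternatives left out the 4 minor Trp-CCA isodecoders. Of 546 alternative values for the pools, the other isodecoders and their shares, 493 kept their direction and their side of the threshold. Another 25 moved across the threshold, and 28, of values past no threshold, turned in sign. The cause of these shifts was not tested. Phe-GAA-3 in OLs kept its sign in every alternative, while its call was lost without the filter on low levels and without a variance trend, so that 0 members passed there in both comparisons of isodecoders. Calls over all pools between OLs and OPCs rose from 0 to 1 without a trend and 7 at a threshold of 0.05, and those between OLs and astrocytes to 2 under median-of-ratios scaling. Calls over all isodecoders between OLs and OPCs went from 11 to 19 with a minimum mean of 100 RPM, 1 without a filter, 17 and 22 under rescaling to listed tRNAs and median-of-ratios scaling, 2 without a trend and 35 at 0.05. Between astrocytes and OPCs they rose from 0 to 1 at 100 RPM, 17 under median-of-ratios scaling, 14 at 0.05 and 10 with all 7 libraries, and between OLs and astrocytes they fell from 12 to 0 without a filter and to 0 without a trend. For shares they went from 4 between OLs and OPCs to 12 with a pseudocount of 10, 16 at 100 RPM, 10 on the logit scale, 10 with a trend, 26 at 0.05 and 17 with all 7 libraries, and 1 member then passed except under the logit and the trend. Between OLs and astrocytes they went from 7 to 15 at 100 RPM, 15 with a trend (2 members), 26 at 0.05 and 0 with those groups alone (0 members). Phe-GAA-2 turned to -0.034 and -0.058 in OLs against OPCs, and to -0.013 and -0.045 against astrocytes, under rescaling and median-of-ratios scaling, as did Trp-CCA-2 against astrocytes (-0.039 and -0.070). The ratio between OLs and astrocytes turned to 0.057 for the most abundant isodecoders.

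Without 1 library at a time, pools called ran from 0 to 11 (OLs against OPCs), 0 to 2 (astrocytes against OPCs) and 0 to 1 (OLs against astrocytes), isodecoders from 0 to 29, 0 to 17 and 0 to 20, and shares from 0 to 5, 0 to 0 and 0 to 8. Members called ran from 0 to 1 for isodecoders and for shares in both comparisons with OLs. Over the same fits Phe-GAA ran from -0.30 to 0.053 (astrocytes against OPCs) and -0.27 to 0.088 (OLs against astrocytes), and Trp-CCA from -0.16 to 0.063 in the latter. Between astrocytes and OPCs Phe-GAA-1 ran from -0.33 to 0.018, Phe-GAA-2 from -0.20 to 0.11 and Phe-GAA-3 from -0.22 to 0.25. Phe-GAA-2 ran from -0.043 to 0.067 between OLs and OPCs. Between OLs and astrocytes Phe-GAA-1 ran from -0.17 to 0.17, Phe-GAA-2 from -0.11 to 0.20, Trp-CCA-2 from -0.067 to 0.11, Trp-CCA-5 from -0.18 to 0.064, its share from -0.016 to 0.0017 and the log2 ratio of pools from -0.33 to 0.25.

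Replicate numbers were not shown to pair the cultures. Deviations of OPCs and OLs with the same number correlated at 0.118 and -0.111. The deviations of the 2 OL libraries mirror each other, as OPC replicate 1 gave -0.118 with OL replicate 2. These values therefore cannot decide the pairing. With the number as a block, calls between OLs and OPCs were 2 for pools, 45 for isodecoders and 0 for shares. They were 24 for isodecoders between astrocytes and OPCs, and 0 for shares between OLs and astrocytes, with 0 members. Under the block Phe-GAA-2 was 0.018 between astrocytes and OPCs, and the level of Phe-GAA-3 kept its calls. A crossed pairing of OLs and astrocytes, chosen after seeing the data, gave 0 calls of shares. Depth limits the 4 minor Trp-CCA isodecoders.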
